A study of Mus musculus with 21 samples.

Results

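The internal sequences of the intracisternal A particle (IAP), the protein-coding middle part of a family of mouse endogenous retroviruses, were followed in male germ cells with and without Tex15. They were taken from the repeat rows of the deposited count tables as the names that begin with IAP and end with -int or _I, a rule that uses no measured value. It found 6 of 1217 repeat names: IAPEz-int, IAP-d-int, IAPEy-int, IAPEY3-int, IAPLTR3-int and IAPLTR4_I. Each value is the sum of the reads given to all genomic copies of a name, so the copy that made a transcript is not known.

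Germ cells were flow-sorted by an Oct4-GFP reporter, which marks cells that use the gene of the transcription factor Oct4, from testes of embryos and pups of a mixed strain background whose parents were both heterozygous for Tex15. Heterozygous (Tex15+/-, HT) and knockout (Tex15-/-, KO) cells were sampled at embryonic day 16.5 (E16.5), embryonic day 18.5 (E18.5) and after birth, and wild-type (WT) cells after birth only. The postnatal age is given as day 2 in the design text and as 2.5 in the sample names, and is written D2.5 here. Each of the 7 groups held 3 biological replicates, 21 libraries in all. The HT controls carry 1 Tex15 copy and all groups were sorted on the same reporter. The sources used here describe neither the Tex15 allele nor how many animals made up a replicate.

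An IAP copy has the structure of a retroviral provirus: an internal sequence with the gag, pro and pol genes lies between a pair of long terminal repeats (LTRs), which hold the promoter. Most copies have no envelope gene, so their particles stay inside the cell, but transcribed copies can insert elsewhere in the genome. IAPE elements are the subgroup described with an envelope gene, and IAPE-Y elements are relatives of it found on the mouse Y chromosome. In most tissues IAP copies are kept silent by DNA methylation and by histone H3K9 methylation, and in fetal male germ cells, where DNA methylation is erased and laid down anew, the piRNA pathway guides methylation back to them. TEX15 is known as a nuclear protein of male germ cells that is needed for this silencing and for meiosis.

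Gene counts per library were 6063632 to 11884109, and repeat names took 41.9% to 69.4% of all counts. The 6 IAP internal names together held 12670 to 59899 counts per library, and each had at least 30 counts in each library, so all 6 were tested. Tex15 was low in all KO libraries, with a mean of 3.39 CPM (CPM, counts relative to the gene counts of a library, on a scale common to all 21 libraries) at E16.5, 3.03 CPM at E18.5 and 20.9 CPM at D2.5, against 976, 782 and 1878 CPM in HT and 4045 CPM in WT (n = 3 each). Summed germ cell markers (Ddx4, Dazl and others) lay at 2936 to 8294 CPM in HT and KO libraries. Those of Sertoli, Leydig, stromal, endothelial and blood cells each lay at 12.8 to 806 CPM. Hba-a1 and Hbb-b1 of red cells were listed at 0 in all of these libraries. How reads matching many copies were counted is not known, so these zeros do not show that red cells were absent. E16.5 HT replicate 1 stood apart on the first principal component of its age (94.9, where the other 5 libraries lay between -59.7 and 6.75; 79.2% of the variance), and D2.5 KO replicate 3 on that of its age (-92.6, where the other 8 lay between -15.4 and 28.4; 18.7% of the variance). Both were also left out of the tests of KO against HT and of the changes between ages. In sorted cells, more RNA per cell and more cells that make it cannot be told apart.

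IAPEz-int, the internal sequence of the IAPEz elements, was the IAP internal name that was high in KO cells at each age. At E16.5 its HT libraries held 598, 645 and 631 CPM and its KO libraries 1151, 1275 and 1759 CPM. At E18.5 the HT libraries held 635, 473 and 585 CPM and the KO libraries 1619, 1581 and 1504 CPM. At D2.5 the HT libraries held 517, 648 and 597 CPM, the WT libraries 617, 556 and 571 CPM, and the KO libraries 1835, 1941 and 1786 CPM. No KO library overlapped a control library of its age, and HT stayed within 473 to 648 CPM across the ages.

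IAPLTR4_I, the internal sequence that by its name goes with the LTR IAPLTR4, had its highest levels in KO cells at E18.5. At E18.5 its HT libraries held 19.9, 17.7 and 17.9 CPM and its KO libraries 138, 133 and 132 CPM, so the KO libraries lay far above HT and close to each other. At E16.5 it held 4.73, 28.7 and 32.4 CPM in HT and 33.4, 33.8 and 96.1 CPM in KO: the low value is HT replicate 1 (49 counts) and the high one KO replicate 3 (1006 counts), while the other 4 libraries lay within 28.7 to 33.8 CPM. At D2.5 it held 19.2, 13.3 and 5.16 CPM in HT, 25.0, 14.4 and 17.99 CPM in WT and 20.4, 13.0 and 40.3 CPM in KO. The genotypes overlapped at D2.5, and these values rest on 30 to 218 counts per library.

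IAPEY3-int and IAPEy-int, named after the Y-linked IAPE type, also had their highest group mean in KO cells at E18.5. IAPEY3-int held 458, 412 and 492 CPM in HT and 1553, 1316 and 1424 CPM in KO at that age, without overlap. At E16.5 it held 216, 421 and 553 CPM in HT and 485, 499 and 960 CPM in KO, which overlapped, and at D2.5 all 9 libraries of the 3 genotypes lay within 315 to 474 CPM. IAPEy-int held 345, 262 and 328 CPM in HT and 580, 475 and 564 CPM in KO at E18.5. Its E16.5 libraries lay between 329 and 417 CPM and its D2.5 libraries between 163 and 249 CPM, with HT and KO overlapping at both ages.

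IAPLTR3-int, by its name the internal sequence of IAPLTR3 elements, held 255, 256 and 282 CPM in HT and 643, 570 and 630 CPM in KO at E18.5. At E16.5 its HT libraries held 184, 264 and 294 CPM and its KO libraries 314, 306 and 456 CPM, which did not overlap, and at D2.5 the ranges were 129 to 171 CPM in HT, 119 to 167 CPM in WT and 168 to 227 CPM in KO. The lowest KO library at D2.5 lay just above the WT range and inside that of HT. IAP-d-int held 733, 636 and 699 CPM in HT and 1272, 1147 and 1373 CPM in KO at E18.5. Its group means were higher at D2.5 than at the fetal ages in both HT and KO, with all genotypes overlapping at 1043 to 1785 CPM. At E16.5 it ranged from 323 to 767 CPM in HT and from 758 to 1033 CPM in KO.

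**Figure D1:**
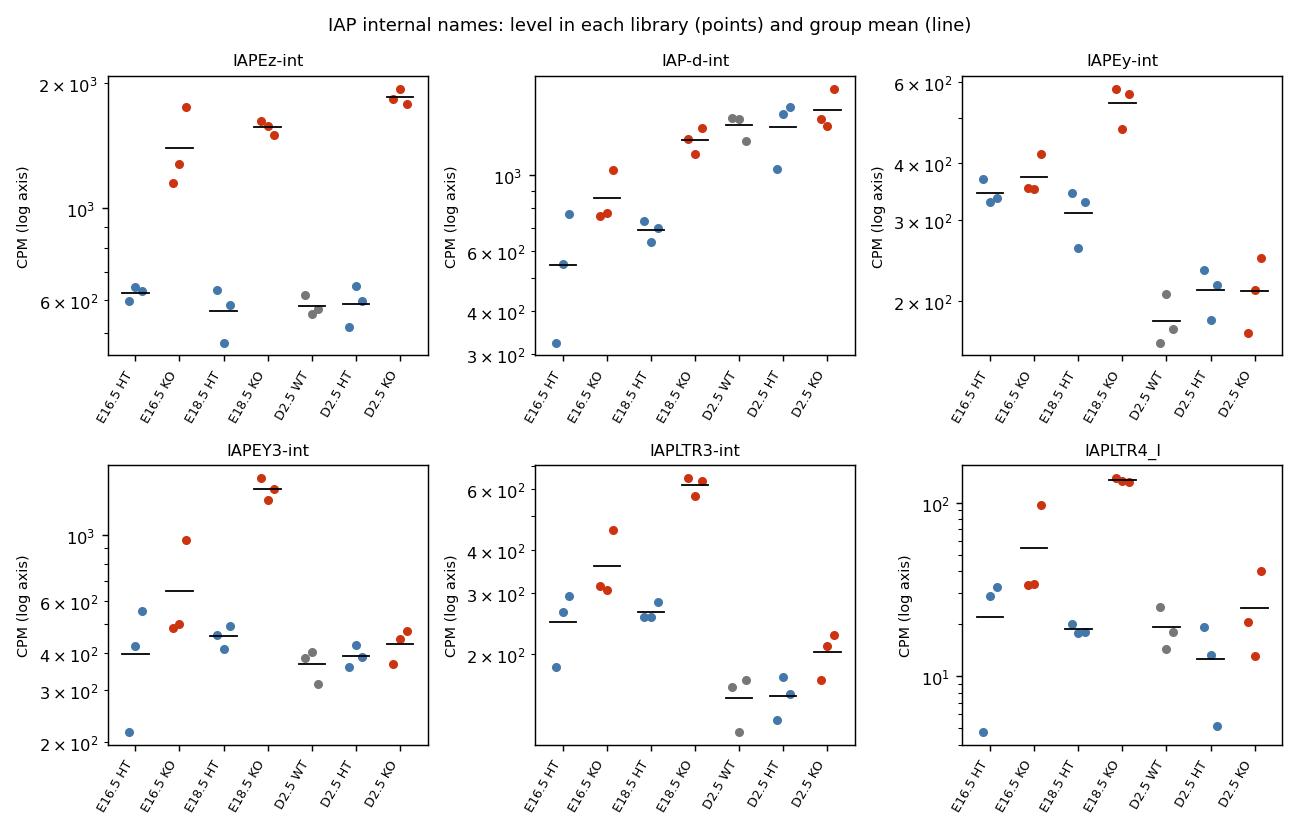
Level of each IAP internal name in each library (points, CPM, log axis) and group mean (line) for HT (blue), KO (red) and, after birth, WT (grey). IAPEz-int is above 1150 CPM in all 9 KO libraries and below 650 CPM in all HT and WT libraries, whereas the other 5 names separate most clearly at E18.5, and 3 of the 6 overlap between HT and KO at E16.5 and 5 at D2.5.

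At E16.5 no IAP internal name passed the test of KO against HT (edgeR's quasi-likelihood test, adjusted over 1090 repeat names, threshold 0.05), and 0 of the 1090 names passed (0% in either direction). The log2 fold change was 1.17 for IAPEz-int (SE 0.17, edgeR adjusted p = 0.0857) and 1.32 for IAPLTR4_I (SE 0.68, edgeR adjusted p = 0.584). The other 4 were at 0.72 (IAPEY3-int), 0.65 (IAP-d-int), 0.55 (IAPLTR3-int) and 0.13 (IAPEy-int), so the members had a median of 0.69 against 0.14 for all names. IAPEz-int, IAPLTR3-int and IAPLTR4_I did not overlap between HT and KO with KO higher, 3 of 6 names, as did 12.9% of all names. At an unadjusted p under 0.05 stood 2 of the 6 (IAPEz-int and IAPLTR3-int) and 67 of all names.

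The E16.5 result for IAPEz-int lies near the threshold. DESeq2 called it (1.15, adjusted p = 9.53e-08) together with 1 other name, and so did 1 edgeR fit of all 21 libraries (1.16, adjusted p = 1.96e-05). With replicate number as a block, edgeR called IAPEz-int too (1.15, adjusted p = 0.026), among 39 names. It also passed in edgeR without KO replicate 1 (1.30, adjusted p = 0.0361) or KO replicate 3 (0.96, adjusted p = 0.0255), and the adjusted p over all alternatives ranged from 9.53e-08 to 0.529 with the fold change between 0.96 and 1.30. Without HT replicate 1, which stands apart, IAPEz-int was at 1.14 (edgeR adjusted p = 0.233), IAPLTR4_I at 0.85, IAPEY3-int at 0.43, IAP-d-int at 0.39, IAPLTR3-int at 0.38 and IAPEy-int at 0.19, and none passed. The members' median log2 fold change was then 0.41, and without KO replicate 3 it was 0.40 (0.075 for all names). These 2 libraries each moved the members' median by over 1.5 times. Without HT replicate 3 the members' median was higher, at 1.03, and 223 names had an unadjusted p under 0.05 in edgeR.

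At E18.5 all 6 IAP internal names rose in KO, where 9.87% of 1125 names did so (edgeR). IAPLTR4_I had a log2 fold change of 2.86 (SE 0.20, adjusted p = 7.72e-43), the largest of all names tested, and IAPEY3-int one of 1.65 (SE 0.18, adjusted p = 2.86e-17). IAPEz-int rose by 1.47 (SE 0.18), IAPLTR3-int by 1.21 (SE 0.18), IAP-d-int by 0.87 (SE 0.18) and IAPEy-int by 0.79 (SE 0.18, edgeR adjusted p = 0.000163). The members' median was 1.34 against 0.18 for all names. All 6 were free of overlap with KO higher, against 17.1% of names. The median of all names was 0.32 without HT replicate 1 and 0.073 without HT replicate 2, while that of the members stayed between 1.27 and 1.38 with 1 library left out. The calls held in each alternative run, including the scaling by the repeat names themselves, with IAPLTR4_I between 2.64 and 2.91 and IAPEy-int between 0.57 and 0.86.

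At D2.5 IAPEz-int rose by 1.65 against HT (SE 0.22, edgeR adjusted p = 4.15e-11) and by 1.67 against WT (SE 0.22, edgeR adjusted p = 1.62e-11). The other 5 did not pass against either control: against HT IAPLTR4_I was at 0.98 (SE 0.48, unadjusted p = 0.0429, edgeR adjusted p = 0.716), IAPLTR3-int at 0.41 (SE 0.26), IAP-d-int at 0.16 (SE 0.21), IAPEY3-int at 0.14 (SE 0.23) and IAPEy-int at -0.0049 (SE 0.25). Thus 1 of 6 members passed as higher, where 1.17% of 1110 names did so against HT and 1.44% against WT. IAPEz-int was also the 1 member without overlap against HT (3.06% of names with KO higher). The members' median was 0.29 against -0.18 for all names, and IAPEz-int kept its call in each alternative (1.56 to 1.86). The members' median was 0.18 without HT replicate 1 and 0.19 without KO replicate 3, and that of all names lay between -0.31 (without KO replicate 3) and -0.040 (without KO replicate 1), with -0.28 without HT replicate 1 and -0.11 without HT replicate 3. Without KO replicate 3, which stands apart, IAPLTR4_I was at 0.41, and without HT replicate 3 at 0.61.

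HT and WT cells were compared at D2.5 as controls of each other, and 0 of 6 members and 0 of 1110 names passed in edgeR and in DESeq2 (16 names had an unadjusted p under 0.05 in edgeR, none of them a member). IAPEz-int was at 0.02 (SE 0.22) and the members ranged from -0.62 (IAPLTR4_I, SE 0.48) to 0.22 (IAPEy-int, SE 0.25). Their median was 0.02 beside 0.06 for all names, and with 1 library left out these medians ranged from -0.074 to 0.15 and from -0.011 to 0.17.

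**Figure D2:**
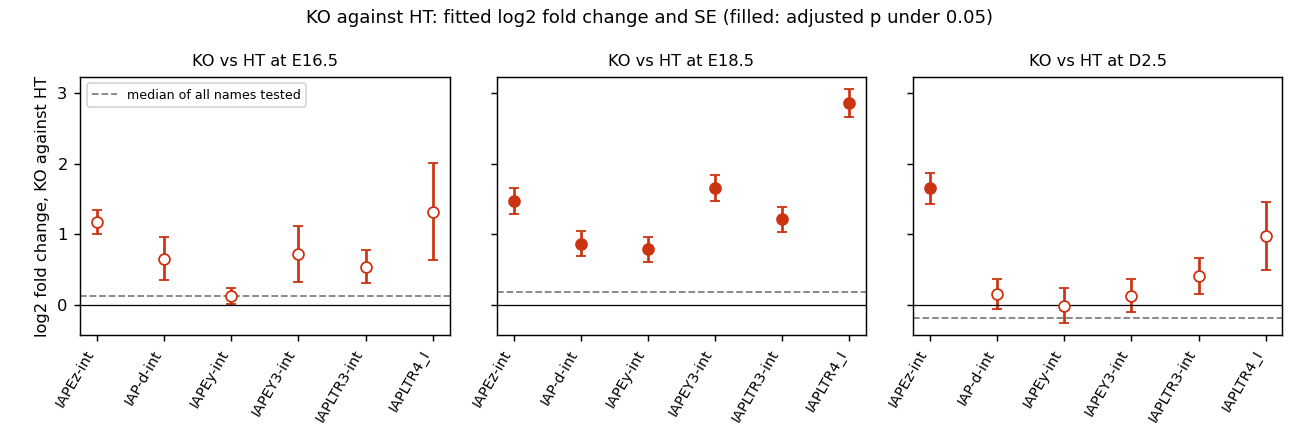
Fitted log2 fold change of KO against HT with its SE for the 6 IAP internal names at each age; filled points passed the edgeR test, and the dashed line is the median of all names tested. All 6 points are filled at E18.5, IAPEz-int alone at D2.5 and none at E16.5.

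At the 2 later ages edgeR gave names of like abundance a common spread, so a test on each name's own spread was added: an exact stratified permutation of HT and KO within each age, on log2(CPM + 1), with 8000 arrangements and a smallest possible p of 0.00025. IAPEz-int had a mean KO minus HT difference of 1.43 over the 3 ages (exact p = 0.00025, adjusted p = 0.0409), and IAPLTR3-int of 0.72 (exact p = 0.0005, adjusted p = 0.044). These 2 of 6 passed, where 1.14% of 1144 names did. Without E16.5 HT replicate 1 no name passed, with IAPEz-int at 1.41 (exact p = 0.00025, the smallest of 4000 arrangements, adjusted p = 0.0715) and IAPLTR3-int at 0.65 (adjusted exact p = 0.0903). Without D2.5 KO replicate 3 IAPEz-int passed (1.43, adjusted exact p = 0.0408) and IAPLTR3-int did not (0.69, adjusted exact p = 0.0793). IAPLTR4_I (1.73, adjusted exact p = 0.0847), IAP-d-int (0.59, adjusted exact p = 0.108), IAPEY3-int (0.84, adjusted exact p = 0.135) and IAPEy-int (0.30, adjusted exact p = 0.324) did not. With 3 libraries against 3 at a single age, an exact test cannot go below 0.1.

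Whether the KO effect itself differed between ages was tested in 1 fit of the 18 HT and KO libraries. IAPEY3-int had a smaller effect at D2.5 than at E18.5, by 1.52 on the log2 scale (-1.52, SE 0.33, edgeR adjusted p = 0.0153), 1 of 6 members where 1.75% of 1144 names did so. IAPLTR4_I was at -1.89 (SE 0.65, adjusted p = 0.152), IAPEy-int at -0.80 (adjusted p = 0.0835), IAPLTR3-int at -0.80 (adjusted p = 0.133), IAP-d-int at -0.71 (adjusted p = 0.236) and IAPEz-int at 0.18 (adjusted p = 0.567). The IAPEY3-int call ended without D2.5 KO replicate 1 (-1.42, adjusted p = 0.0534) or E18.5 HT replicate 2 (-1.44, adjusted p = 0.106), and when libraries were scaled by the repeat names (-1.13, adjusted p = 0.16). Without D2.5 KO replicate 3, IAPLTR4_I (-2.40, edgeR adjusted p = 0.0404) and IAPEy-int (-0.90, edgeR adjusted p = 0.0238) passed as well. Between E16.5 and E18.5, 0 of 6 members passed (0.175% of names passed as higher). IAPLTR4_I was at 1.55 (SE 0.62) and IAPEY3-int at 0.95 (SE 0.33), and both passed without E16.5 HT replicate 1, at 2.00 (adjusted p = 0.0263) and 1.22 (adjusted p = 0.0163).

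Counts of IAPEz-int per count of another member, taken within a library, do not depend on how libraries are scaled. This comparison was added after seeing the data. At D2.5 there were 1.44 to 1.55 counts of IAPEz-int per count of IAPEY3-int in HT, 1.38 to 1.81 in WT and 3.77 to 5.005 in KO. At E18.5 the same ratio was 1.15 to 1.39 in HT and 1.04 to 1.202 in KO, which overlap. Per count of IAPEy-int it was 2.21 to 3.55 in HT and 7.18 to 10.7 in KO at D2.5, and 1.78 to 1.84 in HT and 2.67 to 3.33 in KO at E18.5. Per count of IAPEY3-int, IAPEz-int thus overlapped between the genotypes at E18.5 and not at D2.5.

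For IAPLTR4_I the ratio went the other way at E18.5. There were 26.7 to 32.7 counts of IAPEz-int per count of IAPLTR4_I in HT and 11.4 to 11.9 in KO. In a limma test of the log2 ratio of each name to IAPEz-int, IAPLTR4_I was higher in KO by 1.38 (SE 0.16, adjusted p = 4.99e-17), as were 0.267% of 1124 names. The difference did not pass for IAPEY3-int (0.17, SE 0.14, limma adjusted p = 0.225) or IAPLTR3-int (-0.27, SE 0.14, limma adjusted p = 0.0647), while IAP-d-int (-0.61) and IAPEy-int (-0.69) were lower, as were 96.3% of names.

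At D2.5, 4 of the 5 other members were lower relative to IAPEz-int in KO than in HT (limma): IAPEy-int by -1.68 (SE 0.24), IAPEY3-int by -1.53 (SE 0.21), IAP-d-int by -1.48 (SE 0.18) and IAPLTR3-int by -1.25 (SE 0.24, adjusted p = 1.29e-06), with IAPLTR4_I at -0.66 (SE 0.47, adjusted p = 0.164). IAPLTR4_I passed too without KO replicate 3 (-1.13, adjusted p = 0.0386) or HT replicate 3 (-1.22, adjusted p = 0.0137). That share says little of the members, since 94% of 1109 names were lower relative to IAPEz-int. Against WT all 5 were lower, IAPLTR4_I by -1.43 (SE 0.47, limma adjusted p = 0.00305), as were 94% of names. At E16.5 IAPEy-int (-1.02, limma adjusted p = 8.42e-06) and IAPLTR3-int (-0.60, limma adjusted p = 0.00641) were already lower in KO than in HT. IAP-d-int (-0.42), IAPEY3-int (-0.40) and IAPLTR4_I (0.40) did not pass at that age, where 94% of 1089 names were lower. All these ratios share the IAPEz-int count, so they err together. The change of the ratio's KO effect from E18.5 to D2.5 was tested too. IAPEz-int, picked after seeing the data, was the 1 member whose own KO effect did not fall there (0.18, against -0.71 to -1.89). That choice set the direction for the other 5 in advance, so their p-values are no independent support. The share of all names given next uses the same reference, and the median KO effect of all names changed by -0.36. All 5 members lost ground to IAPEz-int between those ages, by 0.87 (IAP-d-int) to 2.04 (IAPLTR4_I) on the log2 scale, with limma adjusted p from 0.000211 (IAPEY3-int, -1.70) to 0.0498 (IAP-d-int), where 6.47% of 1143 names did. IAPEY3-int passed without any 1 library of these ages. IAPEy-int missed the threshold without D2.5 HT replicate 1 (-0.83) or E18.5 KO replicate 3 (-0.93), and IAPLTR3-int without E18.5 HT replicate 1 (-0.87) or E18.5 KO replicate 3 (-0.93). IAP-d-int and IAPLTR4_I each missed it without most single libraries (-0.77 to -0.94 and -1.55 to -2.13), so that 1 to 5 of the 5 passed.

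**Figure D3:**
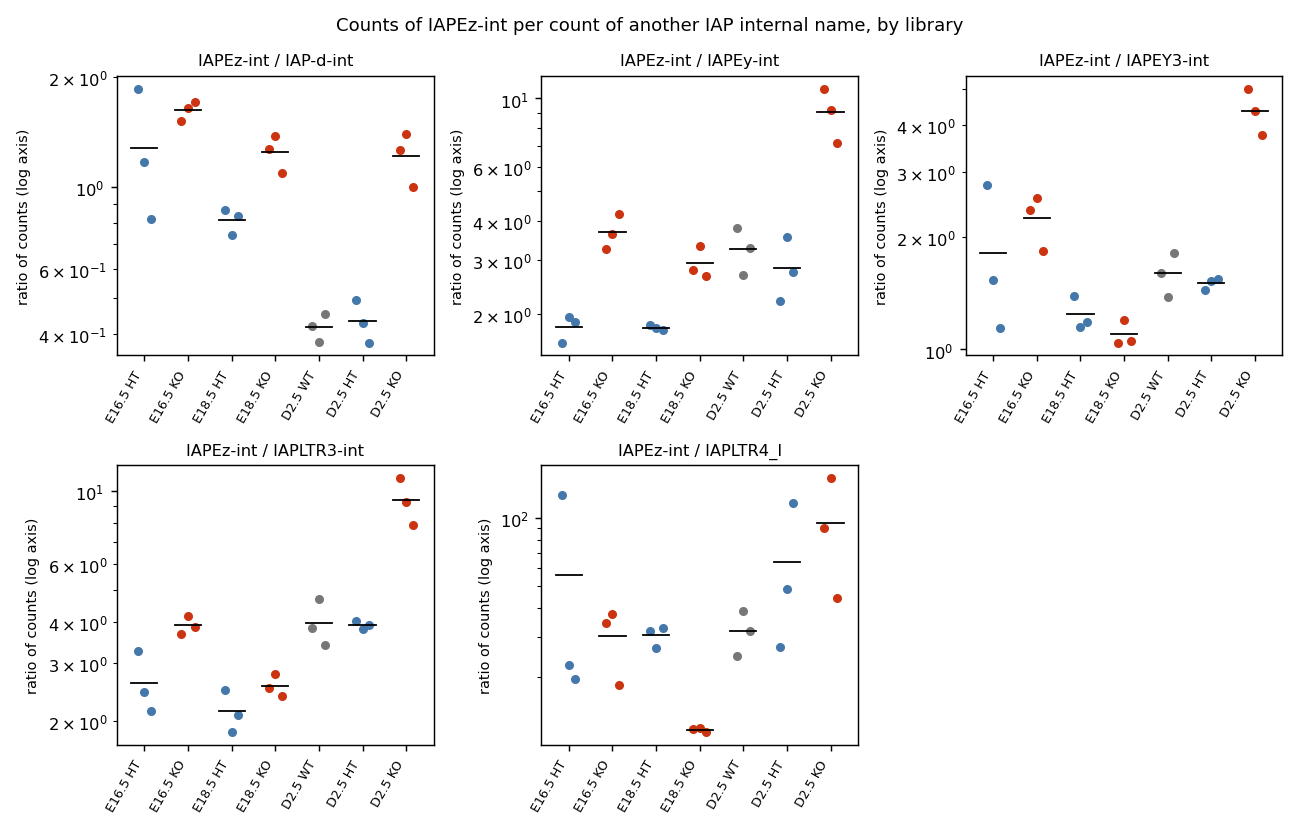
Counts of IAPEz-int per count of each other IAP internal name, by library (points, log axis) with group means (lines). For IAPEY3-int the KO libraries overlap the HT libraries at E18.5 (1.04 to 1.39) and lie above them at D2.5 (3.77 to 5.005 against 1.44 to 1.55); for IAPLTR4_I they sit below HT at E18.5.

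Levels across ages were compared within a genotype, where age cannot be told apart from the table, since each age was deposited in its own table. In HT cells 0 of 6 members differed between E16.5 and E18.5 in edgeR, when 6.64% of names were higher and 0.175% lower. Without E16.5 HT replicate 1 again 0 of 6 did, and 1 of 1144 names. From E18.5 to D2.5 in HT, IAP-d-int rose by 1.00 relative to gene counts (SE 0.21; -0.39 when scaled by the repeat names) while IAPLTR3-int fell by 0.81 (SE 0.19) and IAPEy-int fell by 0.56 (SE 0.17); IAPEz-int was at 0.059 (-1.30 when scaled by the repeat names) and IAPEY3-int at -0.22. Most repeat names went up at this step relative to gene counts (79.1% higher, 3.06% lower, median 1.36). Scaled by the repeat names, which moves that median to -0.0025, 5 of 6 members passed as lower in HT at D2.5, IAP-d-int being the exception (edgeR adjusted p = 0.103), as did 26.6% of names.

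In KO cells 4 of 6 members fell from E18.5 to D2.5 (6.21% of names lower, 70.3% higher): IAPLTR4_I by -2.45 (SE 0.46), IAPEY3-int by -1.74 (SE 0.24), IAPLTR3-int by -1.61 (SE 0.19) and IAPEy-int by -1.36 (SE 0.17). IAPEz-int was at 0.24 and IAP-d-int at 0.29, and IAPEz-int passed as higher without D2.5 KO replicate 3 (0.40, edgeR adjusted p = 0.0402). Scaled by the repeat names, all 6 passed as lower, where 27.9% of names did, with IAPEz-int at -0.72 (adjusted p = 0.000343) and IAP-d-int at -0.69 (adjusted p = 0.00619). From E16.5 to E18.5 in KO, 5 of 6 members passed as higher (29.5% of names), with IAPLTR4_I at 1.30 and IAPEY3-int at 1.14, and IAPEz-int was at 0.17. None of those 5 passed under scaling by the repeat names (4.81% of names higher) or without E16.5 KO replicate 2, and 1 to 3 passed when another KO library of these ages was left out.

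The LTRs of an element are counted under their own names, and 10 IAP LTR names stood beside the internal ones. At E18.5 all 10 LTR names rose (median 1.12, IAPLTR1_Mm 1.94), and at D2.5 3 of 10 did: IAPLTR1_Mm at 2.35 (SE 0.28), IAPLTR2a at 1.48 (SE 0.25) and IAPLTR2b at 1.34 (SE 0.27). Of all names tested, 9.87% passed as higher at E18.5 and 1.17% at D2.5. IAPEY_LTR (0.20), IAPEY3_LTR (-0.20), IAPLTR3 (-0.04) and IAPLTR4 (0.65), whose names match members, did not pass at D2.5 in edgeR. At E16.5, 0 of 10 passed and IAPLTR1_Mm was at 1.34 (SE 0.19, edgeR adjusted p = 0.0857). Without E16.5 HT replicate 1 again 0 of 10 passed, and without D2.5 KO replicate 3 IAPLTR1_Mm, IAPLTR2a and IAPLTR2b did at D2.5.

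The share of internal to LTR counts at E18.5 moved in opposite directions for different pairs. IAPLTR4_I held 0.323 to 0.465 counts per count of IAPLTR4 in HT at E18.5 and 0.968 to 1.11 in KO, and IAPEY3-int held 3.68 to 4.23 per count of IAPEY3_LTR in HT and 6.41 to 6.92 in KO. IAPLTR3-int per IAPLTR3 went from 8.56 to 12.3 in HT to 14.4 to 16.6 in KO. IAPEy-int per IAPEY_LTR was lower in KO, at 3.43 to 3.71 against 4.10 to 4.61 in HT. IAPEz-int per IAPLTR1_Mm was lower in KO too, at 6.60 to 7.58 against 9.02 to 11.3 at E18.5 and at 5.68 to 5.84 against 8.12 to 10.7 at D2.5. No pair overlapped between HT and KO at E18.5. At D2.5 the HT and KO ranges overlapped for IAPLTR4_I (0.144 to 1.47 in HT, 0.385 to 0.773 in KO), IAPLTR3-int (3.201 to 5.46 and 4.596 to 8.79) and IAPEy-int (2.49 to 4.77 and 2.18 to 3.85), while IAPEY3-int was higher in KO (2.33 to 2.73 and 2.92 to 3.92) but overlapped WT (2.73 to 3.57). At E16.5 all 4 of these pairs overlapped between HT and KO, and IAPEz-int per IAPLTR1_Mm was 7.47 to 8.98 in HT and 7.08 to 7.19 in KO. Of these pairs, 4 were chosen by matching names, but IAPEz-int and IAPLTR1_Mm do not share a name. In KO against HT at E18.5, IAPLTR1_Mm rose by 1.94, IAPEz-int by 1.47 and the other IAP LTR names by at most 1.35. The lower ratio of IAPEz-int in KO therefore depends on the LTR chosen. LTR counts include solitary LTRs, and neither a test nor the share of other names without overlap was computed for the pairs.

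**Figure D4:**
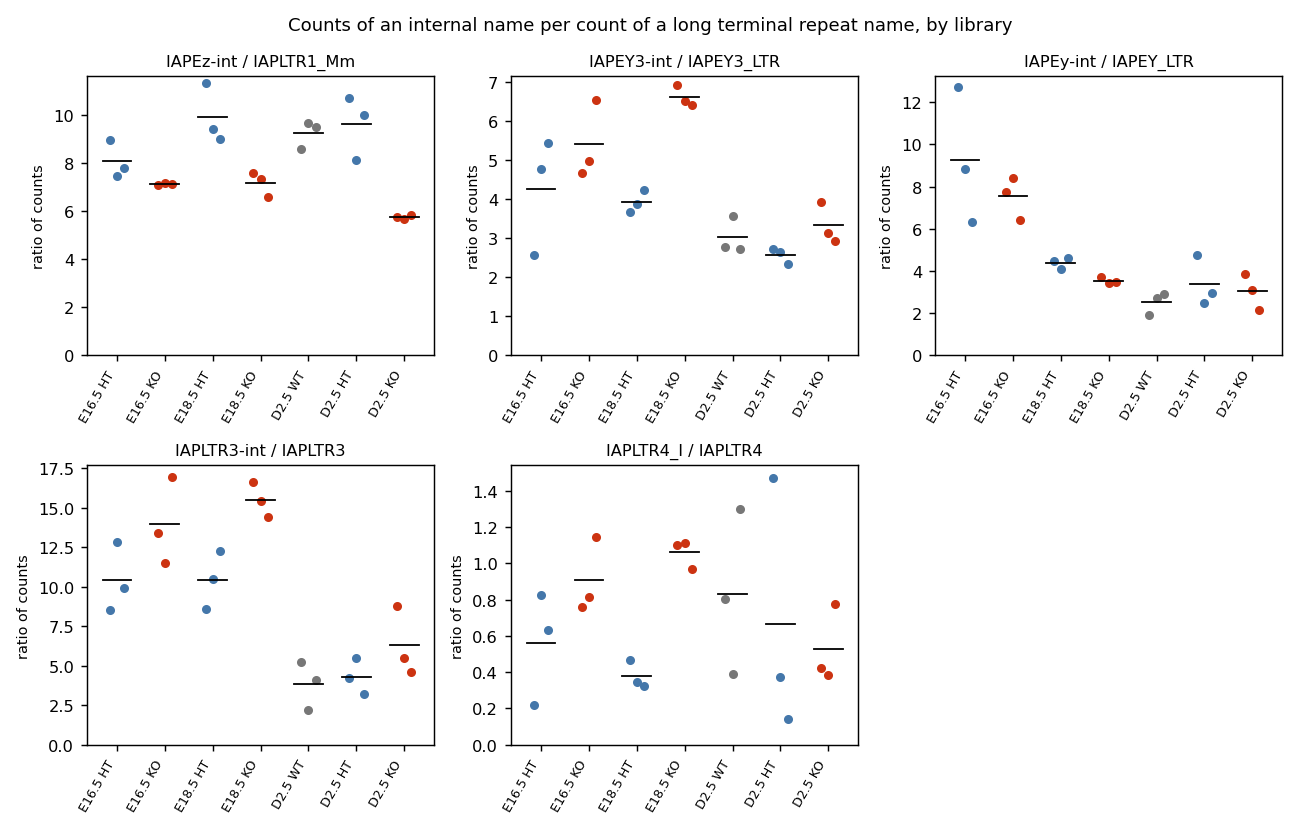
Counts of 5 IAP internal names per count of an LTR name, by library (points) with group means (lines); which LTR flanks IAPEz-int was not read from the files. At E18.5 the KO libraries lie above HT for IAPEY3-int, IAPLTR3-int and IAPLTR4_I and below HT for IAPEz-int and IAPEy-int.

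Relatives of IAP were set beside it. ETn elements, which rely on proteins of MusD elements to move, and MusD itself had 5 of 5 names higher in KO at E18.5 (median 0.96) and 0 of 5 passing at D2.5 in edgeR (median -0.012). MMERVK10C and RLTR10 names, another family of this retrovirus class, had 8 of 9 higher at E18.5 (median 1.11) and 1 of 9 at D2.5 (median 0.22). The share of all names that passed as higher was 9.87% at E18.5 and 1.17% at D2.5. At E16.5, 0 of 14 in these groups passed in edgeR, with or without HT replicate 1. Without D2.5 KO replicate 3 the counts at D2.5 were again 0 of 5 (median -0.20) and 1 of 9 (median 0.19). The difference between these groups and the IAP internal names was not tested.

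**Figure D5:**
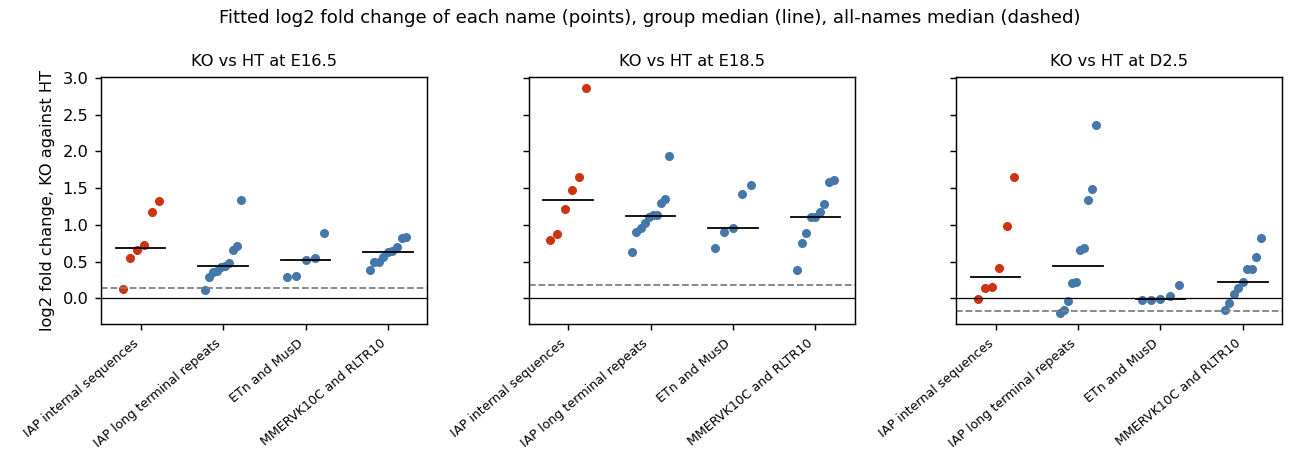
Fitted log2 fold change of KO against HT for each name (points) of 4 groups, with the group median (line) and the median of all names (dashed). All 4 group medians lie between 0.96 and 1.34 at E18.5; at D2.5 they lie between -0.012 and 0.43, with single names, IAPEz-int among the internal ones, far above.

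Over all 21 libraries the members fell into like and unlike patterns, given as Pearson r of log2(CPM + 1) without a test, since the libraries share genotype, age and table. IAPEY3-int ran closest to IAPLTR4_I (0.91) and IAPLTR3-int (0.89), and IAPEy-int to IAPLTR3-int (0.89). IAPEz-int lay at 0.35 to 0.61 with the other 5, and IAP-d-int at -0.38 to 0.38. The repeat name outside IAP most like IAPEz-int was MMERGLN-int (0.91), followed by RLTR4_MM-int (0.82), RLTR1B-int (0.81), L1Md_A (0.78) and MMERVK10C-int (0.75). MMERGLN-int had means of 846 CPM in HT, 856 CPM in WT and 1770 CPM in KO at D2.5 and of 645 CPM in HT and 1934 CPM in KO at E18.5.

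Among 17247 genes those most like IAPEz-int were Olfr559 (0.91), Spinkl (0.90), Olfr792 (0.90), Slc40a1 (0.87) and AA792892 (0.86). Predicted genes with Gm or Rik names were left out of this ranking. Slc40a1, the iron exporter ferroportin, went from 23.2 CPM in HT to 91.4 CPM in KO at E16.5, from 16.9 to 54.0 CPM at E18.5 and from 18.2 to 212 CPM at D2.5 (means, n = 3). The olfactory receptor genes Olfr559 and Olfr792, with Spinkl and AA792892, had means of at most 4.67 CPM in each group, so their likeness rests on few counts. Reads of olfactory receptor genes can be shared between near-identical copies.

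Genes that silence IAP were examined in 4 lists. Gm14490 of the DNA methylation list and Spocd1 of the piRNA pathway list had no row in the counts, so nothing can be said of them. At E16.5, 0 of 58 list genes tested passed in edgeR, where 0% of genes were higher and 0.00618% lower. At E18.5, 2 of 58 did, where 2.07% of 18199 genes were higher and 0.0659% lower. Gtsf1, a piRNA pathway protein, fell from a mean of 98.7 CPM in HT to 44.5 CPM in KO (log2 fold change -1.15, SE 0.15, edgeR adjusted p = 0.000554), and kept its call without any 1 library. Cbx5, the heterochromatin protein HP1 alpha, had a mean of 278 CPM in HT and 422 CPM in KO (log2 fold change 0.60, SE 0.15, edgeR adjusted p = 0.049), and no longer passed when any 1 of the 6 libraries was left out. Morc1, a gene of male germ cells needed to silence transposons, was at 0.49 (SE 0.20, edgeR adjusted p = 0.495) and passed without KO replicate 1 (0.72, edgeR adjusted p = 0.016). The other 18 of 19 piRNA pathway genes did not pass, with Piwil2 at 0.12, the nuclear PIWI protein Piwil4 at -0.068 and Piwil1 at -0.075.

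Of the DNA methylation genes 0 of 9 passed at E18.5 in edgeR: the maintenance methyltransferase Dnmt1 was at 0.10 and its partner Uhrf1 at 0.04, and the de novo enzyme Dnmt3a was at 0.10. In the KRAB and H3K9 list, besides Cbx5, the corepressor Trim28 was at -0.26, the methyltransferase Setdb1 at 0.16 and its partner Atf7ip at 0.0085. Among genes that restrict retroelements or sense their RNA 0 of 10 passed in edgeR, with the antiviral factors Apobec3 at -0.74 (SE 0.42) and Samhd1 at -0.11 and the nuclease Trex1 at 0.066. At D2.5, 0 of 57 passed in edgeR (0.146% of 14367 genes were higher and 0.00696% lower); Suv39h2, a histone H3K9 methyltransferase, was at 0.92 (SE 0.19, edgeR adjusted p = 0.0529), with Piwil4 at -0.73 (SE 0.39) and Dnmt1 at 0.02.

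Among the markers of other cells only Mrc1, Adgre1 and Tek passed between KO and HT in edgeR, all at E18.5. Summed macrophage and blood markers lay at 34.5 to 67.9 CPM in KO and 14.8 to 39.5 CPM in HT at E16.5, with 0 of 7 passing in edgeR. At E18.5, 2 of 7 macrophage and blood markers tested rose in edgeR, Mrc1 by 1.82 and Adgre1 by 1.43, where 2.07% of 18199 genes were higher. Ptprc (0.54), Csf1r (0.41), Aif1 (0.14), Fcgr1 (-0.013) and Cd68 (-0.34) did not pass. The summed level was 72.7 to 92.2 CPM in KO and 38.0 to 40.4 CPM in HT. Mrc1 alone had a mean of 51.1 CPM in KO and 14.4 CPM in HT. The endothelial marker Tek rose by 0.87 (1 of 8). Of 12 germ cell markers Pou5f1, which encodes Oct4, fell by 0.81 and Kit rose by 0.65. Mrc1 passed without any 1 library, but Adgre1 (1.28 to 1.46) and Tek (0.76 to 0.85) each missed the threshold when KO replicate 3, HT replicate 2 or HT replicate 3 was left out. Pou5f1 missed it without one of those or KO replicate 1 (-0.66 to -0.83). Kit passed with KO replicate 1 left out but with none of the other 5 (0.61 to 0.67). At D2.5 stromal markers had a median of 1.21 with 0 of 7 passing in edgeR (1.33 and 0 of 8 tested without KO replicate 3), and a summed level of 325 to 806 CPM in KO against 210 to 319 CPM in HT. Sertoli markers at D2.5 had a median of 0.66 with 0 of 7 passing in edgeR (0.79 and 0 of 8 tested without KO replicate 3). Their summed level was 61.7 to 227 CPM in KO and 57.9 to 90.7 CPM in HT. Medians there were 0.16 for endothelial and -0.46 for Leydig markers. For macrophage and blood markers the median was -0.16 (1.23 without KO replicate 3). The part of these cells in the IAP values was not tested.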

How the data were processed

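Total RNA from sorted cells was amplified and made into libraries with NuGEN Ovation kits, per the labels' protocols. The deposited values are whole-number read counts in 3 tables, 1 per age, with 24495 gene rows and 1217 repeat names each; repeat family tables were not used. The submitters' processing notes name STAR, Bowtie, featureCounts, edgeR and mm9; no source used here gives versions or says how reads matching many copies were counted, so counts may be split between like names, and levels of names are not compared because lengths are not given.

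Names with at least 10 counts in at least 3 libraries were tested with edgeR 4.0.16 (R 4.3.3; quasi-likelihood, two-sided, Benjamini-Hochberg over all names), scaled by the genes' library sizes and TMM factors. Genes passed filterByExpr (minimum total 15). The fetal ages were fitted separately, the D2.5 groups over 9 libraries, and age contrasts on 18 libraries. The SE is the log2 fold change divided by the square root of F. Prior degrees of freedom were 3.51 at E16.5 and infinite at E18.5 and D2.5. Log2 ratios (counts plus 0.5) were tested with limma 3.58.1. Alternatives used DESeq2 1.42.0, limma-voom, other scalings, filters, a replicate block and leave-one-out fits. The scripts were tested on simulated data, and matplotlib 3.10.9 (Python 3.11.15) drew the figures.

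Every member was named; of 4 silencing lists (60 genes, 58 in the tables), passing genes and otherwise up to 3 of each; and the 5 genes and 5 names most like IAPEz-int. Suv39h2, Morc1 and the cell type markers given were chosen after their values were seen. Members and lists were chosen with earlier results of these data known. No repeat sequences were used here.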

Additional observations from a re-analysis of the deposited data

Results flagged for a closer look

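The KO effect on IAPEY3-int differed between E18.5 and D2.5: it was smaller at D2.5 by 1.52 on the log2 scale (-1.52, SE 0.33, edgeR adjusted p = 0.0153 in the fit of 18 libraries). The log2 fold change was 1.65 at E18.5, where 3 of 3 KO libraries lay above each HT library, and 0.14 at D2.5, where they overlapped. The call did not hold without D2.5 KO replicate 1 (adjusted p = 0.0534), without E18.5 HT replicate 2 (adjusted p = 0.106) or under scaling by the repeat names (adjusted p = 0.16), all in edgeR. Age cannot be told apart here from the table or from anything else that differed between the tables.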

How the results depend on the processing

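The E18.5 calls of all 6 names and the D2.5 call of IAPEz-int held in all edgeR, DESeq2 and limma-voom alternatives run. At E16.5 DESeq2, the replicate block and the fit of 21 libraries each called 1 member in place of 0, and fits without 1 library 0 to 1. For the KO effect from E16.5 to E18.5 the replicate block called 2 and leave-one-out fits 0 to 2 in place of 0; from E18.5 to D2.5 the replicate block called 5, scaling by the repeat names 0 and leave-one-out fits 0 to 3 in place of 1. Relative to IAPEz-int the latter count was 1 to 5 with 1 library left out, and 5 with edgeR. Scaling by the repeat names gave 1 in place of 0 for HT from E16.5 to E18.5, 5 in place of 3 for HT and 6 in place of 4 for KO from E18.5 to D2.5, 0 in place of 5 for KO from E16.5 to E18.5 (0 to 3 in leave-one-out fits), and 5 in place of 2 in the exact permutation (0 to 1 without E16.5 HT replicate 1 or D2.5 KO replicate 3). DESeq2 and limma-voom each called 1 silencing gene at D2.5, Suv39h2, in place of 0, and at E18.5 leave-one-out fits called 1 to 2 in place of 2, Gtsf1 in each and Morc1 without KO replicate 1.

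Counts over all names moved too: at E16.5 DESeq2 called 2, the fit of 21 libraries 4 and the replicate block 39 in place of 0; at E18.5 the block called 205 higher and the fit of 21 libraries 65 in place of 111, leave-one-out fits 61 to 270, and scaling by the repeat names 120 higher and 27 lower; at D2.5 that scaling called 37 higher in place of 13. For the effect from E18.5 to D2.5 the block called 295 lower in place of 20. That scaling moved the median of all names from 0.14 to -0.0048 at E16.5, from 0.18 to -0.032 at E18.5 and from -0.18 to -0.0024 at D2.5. Whether replicate numbers pair the samples was not settled. Deviations of same-numbered HT and KO libraries correlated at 0.63, -0.053 and 0.78 at E16.5 and at 0.25, 0.18 and 0.099 at E18.5. At D2.5 they correlated at 0.038, -0.017 and 0.018. Differently numbered HT and KO libraries ranged from -0.72 to 0.55 at E16.5 and from -0.30 to 0.13 at E18.5. The block was therefore kept as an alternative only. At none of the 3 ages did every HT and KO library correlate best with its own number.

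Some values changed sign. Scaling by the repeat names gave IAPEy-int -0.014 at E16.5 and 0.14 at D2.5 (0.0089 with TMM over genes and names), IAPEz-int -0.047 and IAPLTR3-int -0.055 in HT against WT, IAPEY3-int -0.11 and IAPLTR3-int -0.21 in HT from E16.5 to E18.5, IAP-d-int -0.39 and IAPEz-int -1.30 in HT from E18.5 to D2.5, IAPEz-int -0.24 in KO from E16.5 to E18.5, and IAP-d-int -0.69 and IAPEz-int -0.72 in KO from E18.5 to D2.5. Limma-voom gave IAPLTR4_I 0.15 in HT from E16.5 to E18.5. With 1 library left out, KO against HT at D2.5 ranged from -0.14 to 0.13 for IAPEy-int and -0.018 to 0.28 for IAP-d-int, and KO against WT from -0.20 to 0.67 for IAPLTR4_I. HT against WT ranged from -0.13 to 0.16 for IAP-d-int, -0.032 to 0.17 for IAPEY3-int, -0.067 to 0.12 for IAPEz-int and -0.10 to 0.14 for IAPLTR3-int. HT from E16.5 to E18.5 ranged from -0.00045 to 0.59 for IAP-d-int, -0.17 to 0.44 for IAPEY3-int, -0.15 to 0.16 for IAPLTR3-int and -0.79 to 0.067 for IAPLTR4_I. The KO effect from E16.5 to E18.5 ranged from -0.12 to 0.47 for IAP-d-int. The cause of these changes was not tested. IAPLTR4_I had the fewest counts of the 6 names, 30 to 218 per library at D2.5, so its counting error is the widest.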
